A study of Mus musculus with 8 samples.

Results

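Imprinted genes are expressed mainly or only from the copy inherited from 1 parent, and 44 of them were followed here on expression arrays of mouse embryonic stem (ES) cells treated with small interfering RNAs (siRNAs) against Tet1. The members were taken by symbol from a list of well-known imprinted genes, and a gene counted as measured where a probe set (the group of array probes for 1 gene) carried its symbol or its Entrez gene number. Of the 44 listed genes 39 were measured, among 16253 genes in all. Of these 20 are expressed from the paternal copy, 18 from the maternal copy, and Gnas from either, depending on the transcript. Snrpn, Rtl1, Nespas, Peg13 and Airn were not analysed here. All 8 arrays held RNA of E14Tg2a, a single mouse ES cell line, and each of the 4 groups had 2 arrays. The control group had received an siRNA duplex against firefly luciferase, a gene mouse cells lack, and was taken at 96 h. Tet1 siRNA 1 was taken at 96 h and at 48 h, and Tet1 siRNA 2, a different duplex, at 96 h only. A 48 h control was not analysed here. Separate cultures are not named for the arrays of a group, so the p-values given rest on a spread between arrays that may be technical.

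Imprinting rests on DNA methylation that a parental germline places on an imprinting control region and that the embryo then keeps on that copy alone. The zinc finger protein Zfp57 binds methylated control regions and, with the co-repressor Trim28, protects their methylation when most of the genome loses it. Tet1 converts 5-methylcytosine to 5-hydroxymethylcytosine, a step on the way to demethylation, and in mouse germ cells it takes part in erasing imprints. Many imprinted genes set growth of the embryo and placenta, and in cultured ES cells their expression is known to vary between lines and passages. The arrays read the sum of both parental copies and do not tell them apart. In such bulk samples fewer cells with a transcript and less transcript per cell cannot be told apart.

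Levels are given as deposited, as log2 expression values, so a difference of 1 is a doubling, and differences are in log2 units with their standard error (SE). The target itself was lower in every siRNA group. Tet1 stood at 12.35 and 12.15 on the control arrays, 11.04 and 11.09 with siRNA 1 and 11.32 and 11.14 with siRNA 2 at 96 h, and 9.70 and 9.82 with siRNA 1 at 48 h. It fell by 1.10 ± 0.087 with both siRNAs at 96 h (2.14-fold, adjusted p = 0.000112, limma) and by 2.49 ± 0.10 at 48 h against the control of 96 h. The groups did not overlap, and the 48 h arrays were lowest. The 48 h arrays also stood apart in other ways. Markers of lung epithelium, cells that an ES culture should not hold, averaged 7.00 to 7.56 on the 6 arrays of 96 h and 5.29 to 5.32 at 48 h, and Scgb1a1, the club cell secretory protein gene, was at 11.95 to 12.83 on the arrays of 96 h and at 3.71 and 4.03 at 48 h. The hybridisation controls of the arrays averaged 11.86 to 12.24 at 96 h and 11.25 to 11.28 at 48 h. The poly-A spike-in controls went the other way, from 7.68 to 8.04 at 96 h and at 8.84 and 8.86 at 48 h. Markers of ES cells were present on every array, with a mean level between 13.05 and 13.26. Of the members H19, Peg12, Plagl1, Rasgrf1, Usp29, Zim1, Asb4 and Calcrl had means within 1 log2 unit of the trp spike-in probes, for a bacterial RNA taken as absent, which read 3.18 to 3.71.

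At 96 h the members moved in both directions. With both Tet1 siRNAs against the control, 10 of 39 members rose, 6 fell and 23 were not called at an adjusted p below 0.05, against 11.7% of all genes called higher and 12.0% called lower, or 23.8% in all. The members rising were Gatm, Nap1l5, Peg10, Sgce, Ndn, Magel2, Slc38a4, Igf2r, Ppp1r9a and Grb10, and those falling were Peg3, Dcn, Zrsr1, Trappc9, Mkrn3 and Mcts2. The median difference was 0.062 over the members and -0.023 over all genes, and the median size without sign was 0.22 and 0.14. The 4 siRNA arrays of 96 h did not overlap the 2 control arrays for 22 of 39 members, where 43.8% of all genes had such a gap. The count of falling members was 3 without control replicate 1, 1 without control replicate 2, 2 without siRNA 1 replicate 1 and 3 without siRNA 2 replicate 2, and 3 with the lung marker mean as a covariate. The count of rising members stayed between 8 and 10 when any single array was left out. Beside these counts, markers of other cell types also moved. Of 7 neuron markers 3 were lower and 0 higher, with Stmn3 at -1.79 ± 0.083 and Tubb3 at -1.53 ± 0.12, and the list averaged 6.12 and 6.20 in the control and 5.48 to 5.65 with the siRNAs at 96 h. Of 8 markers of extraembryonic lineages 2 were higher, Amn by 1.22 ± 0.16 and Sox17, and their average went from 5.80 and 5.92 to between 6.08 and 6.23. Of 8 markers of endothelium and blood 2 were higher and 0 lower, and of 7 ES cell markers 3 were higher and 2 lower. The part of these cell markers in the change of the members was not tested.

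**Figure D1:**
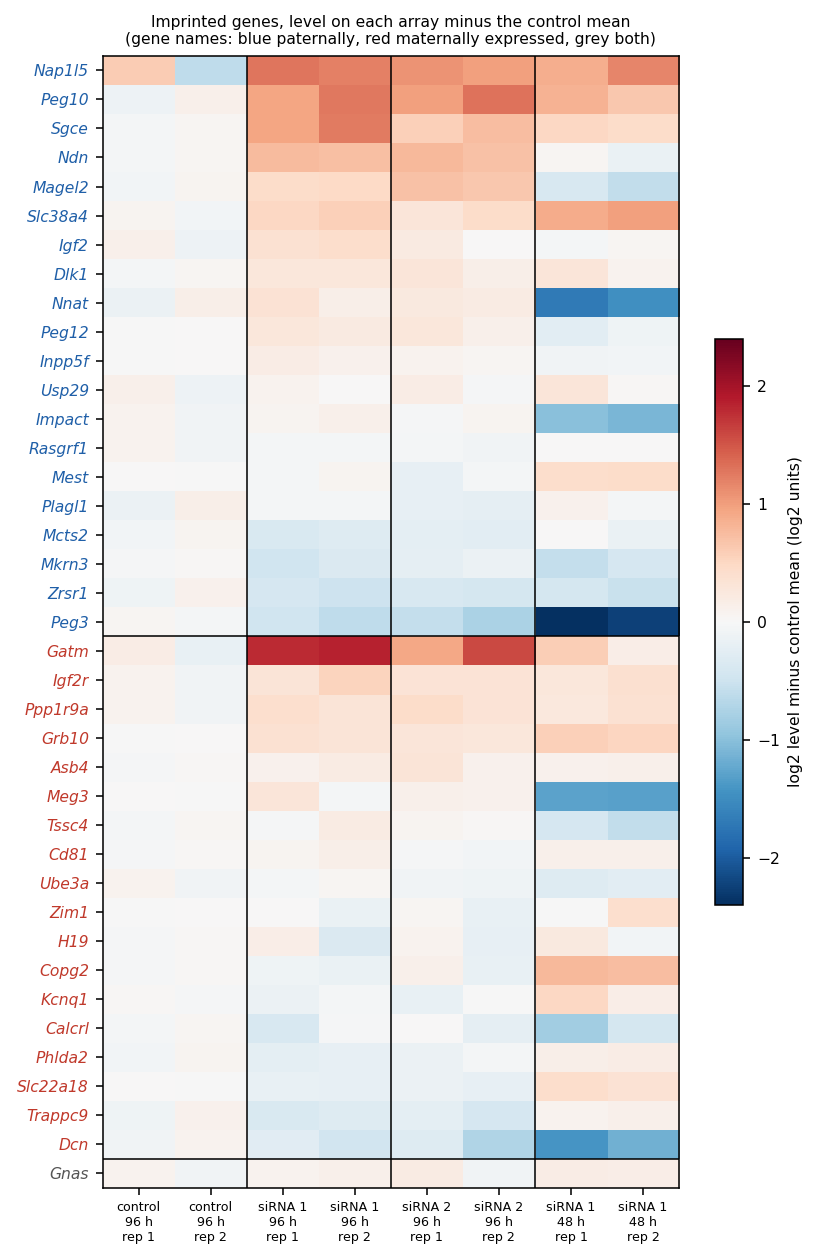
Level of each of the 39 measured imprinted genes on each of the 8 arrays minus the mean of the 2 control arrays (colour, log2 units), with genes in rows grouped by expressed parental copy and arrays in columns grouped by siRNA and time. Rows with a red block at 96 h include Gatm, Peg10 and Sgce, and Peg3, Nnat, Meg3, Dcn and Impact are dark blue on the 48 h arrays.

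At the locus of Peg10 and Sgce on chromosome 6, 3 of 4 members rose with both siRNAs at 96 h. Among all genes 11.7% were called higher, and these 4 members were not tested as a set. Peg10 and Sgce are paternally expressed and share a promoter region from which they run in opposite directions. Peg10, a gene derived from a retrotransposon and needed for the mouse placenta, stood at 4.86 and 5.11 on the control arrays, 5.93 and 6.26 with siRNA 1, 5.98 and 6.30 with siRNA 2, and 5.83 and 5.63 with siRNA 1 at 48 h. All siRNA arrays lay above both control arrays, at either time. Peg10 rose by 1.13 ± 0.13 with both siRNAs at 96 h (2.19-fold, adjusted p = 0.000723). Sgce, which encodes epsilon-sarcoglycan, a membrane protein, read 6.51 and 6.61 in the control, 7.51 and 7.80 with siRNA 1, 7.13 and 7.29 with siRNA 2, and 7.07 and 7.00 at 48 h. Again no siRNA array reached down to the control, and siRNA 1 at 96 h was highest. Sgce rose by 0.87 ± 0.096 (1.83-fold, adjusted p = 0.000524).

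Ppp1r9a, near Peg10, encodes the actin-binding protein neurabin 1 and is maternally expressed in some mouse tissues. Its levels were 7.86 and 7.68 in the control, 8.16 and 8.08 with siRNA 1, 8.20 and 8.09 with siRNA 2, and 8.01 and 8.13 at 48 h. The groups did not overlap, and it rose by 0.37 ± 0.079 (adjusted p = 0.0118), with an adjusted p of 0.0991 without control replicate 2. Asb4, a maternally expressed gene for an ankyrin repeat and SOCS box protein further along, had group means between 4.10 and 4.30 and was not called (0.18 ± 0.077, adjusted p = 0.14).

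The neighbours of these members were then read in chromosomal order, a stretch chosen after its values had been seen. From Calcr to Dlx5 RefSeq lists 21 genes as protein-coding, among them Gmfg-ps, whose symbol is that of a pseudogene, and 20 of the 21 were measured. Of these 7 rose, 1 fell and 12 were not called, with a median difference of 0.022. Among all genes 11.7% were called higher and 12.0% lower, but this stretch was not chosen blind to its values. Calcr, the calcitonin receptor gene at the start of this stretch, stood at 5.75 and 5.27 in the control, 7.91 and 7.59 with siRNA 1, 7.40 and 7.51 with siRNA 2, and 4.64 and 4.71 at 48 h. It was above the control on all siRNA arrays at 96 h and below it on both arrays at 48 h, and its rise at 96 h was 2.09 ± 0.14 (adjusted p = 5.53e-05). Pon2, a paraoxonase gene between Peg10 and Asb4, stood at 7.03 and 6.98 in the control, 8.31 and 8.33 with siRNA 1, 8.16 and 8.12 with siRNA 2, and 7.99 and 8.02 at 48 h. Pon2 thus lay above the control on every siRNA array, and rose by 1.23 ± 0.060 (adjusted p = 1.92e-05). Pon3, its neighbour and relative, rose by 0.54 ± 0.13 (adjusted p = 0.0165), with an adjusted p of 0.111 without control replicate 1. Tfpi2, a protease inhibitor gene beside Calcr, was at the edge (0.25 ± 0.076, adjusted p = 0.0466), and without any single one of the arrays it was no longer called (adjusted p from 0.055 to 0.288). Pdk4, which encodes a kinase that restrains pyruvate dehydrogenase, fell by 0.73 ± 0.14 (adjusted p = 0.00642). Casd1, directly beside Sgce, differed by -0.023 ± 0.063 (adjusted p = 0.83), and Pon1, between Ppp1r9a and Pon3, by 0.067 ± 0.11 (adjusted p = 0.715).

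**Figure D2:**
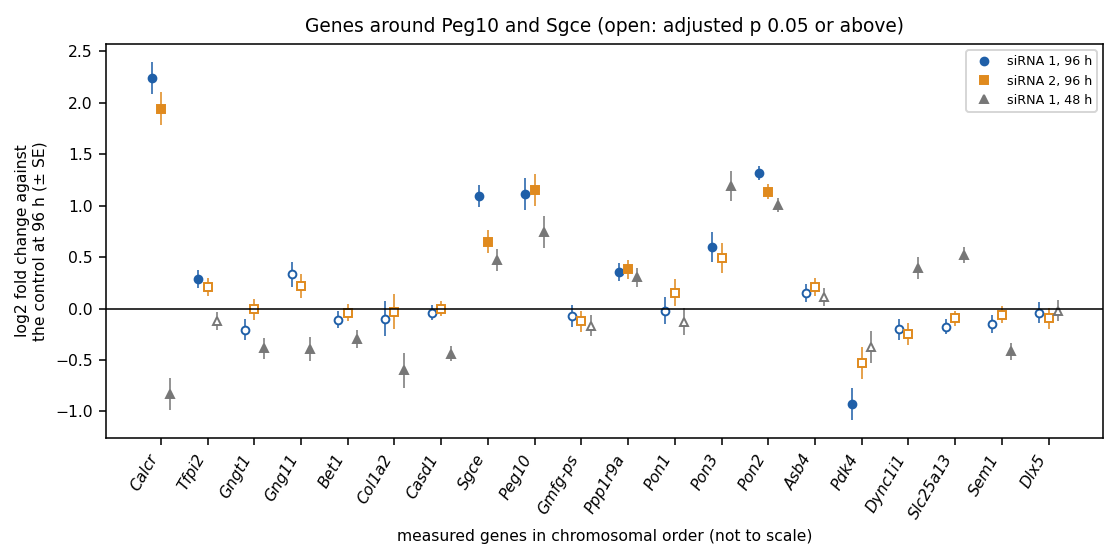
Fitted log2 fold change against the control of 96 h (y axis, ± SE) of 20 measured genes in chromosomal order from Calcr to Dlx5 (x axis, not to scale), for siRNA 1 and siRNA 2 at 96 h and siRNA 1 at 48 h, with open symbols at an adjusted p of 0.05 or above. Calcr, Sgce, Peg10, Ppp1r9a and Pon2 are filled and above 0 with both siRNAs at 96 h, while Casd1 and Bet1 lie near 0 there.

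The cluster of paternally expressed genes on chromosome 7 that matches the human Prader-Willi region held members moving both ways. Ndn and Magel2 encode proteins of the MAGE family, Mkrn3 a ring finger protein that restrains the onset of puberty, and Peg12 a binding partner of the kinase GSK3. The 300-base promoter windows of Ndn, Magel2 and Mkrn3 are shown because these neighbours moved in different directions, Ndn and Magel2 up and Mkrn3 down. They come from RefSeq on GRCm38.p6, run 5′ to 3′ from 250 bases before the gene's start to 50 after it, and have CG pairs, the sites of DNA methylation, in capitals. Ndn lies at chr7:62348027-62348326 on the plus strand, Magel2 at chr7:62376729-62377028 on the plus strand, and Mkrn3 at chr7:62420104-62420403 on the minus strand.
Ndn: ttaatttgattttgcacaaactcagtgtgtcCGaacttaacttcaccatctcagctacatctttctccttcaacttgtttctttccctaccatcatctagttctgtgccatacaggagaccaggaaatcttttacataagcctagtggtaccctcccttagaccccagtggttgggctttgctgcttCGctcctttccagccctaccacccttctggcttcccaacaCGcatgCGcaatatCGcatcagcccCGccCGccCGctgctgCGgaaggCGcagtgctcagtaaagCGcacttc
Magel2: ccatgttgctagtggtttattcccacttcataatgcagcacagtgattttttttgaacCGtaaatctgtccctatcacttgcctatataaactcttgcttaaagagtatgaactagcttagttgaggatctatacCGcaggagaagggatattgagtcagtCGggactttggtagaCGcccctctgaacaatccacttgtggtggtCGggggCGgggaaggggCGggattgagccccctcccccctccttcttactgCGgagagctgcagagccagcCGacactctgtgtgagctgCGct
Mkrn3: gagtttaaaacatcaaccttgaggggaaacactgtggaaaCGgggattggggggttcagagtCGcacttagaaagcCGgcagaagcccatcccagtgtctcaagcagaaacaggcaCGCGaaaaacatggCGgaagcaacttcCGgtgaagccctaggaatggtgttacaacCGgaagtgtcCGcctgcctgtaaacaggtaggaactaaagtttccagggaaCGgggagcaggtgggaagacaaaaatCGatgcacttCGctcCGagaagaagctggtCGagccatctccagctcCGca
Ndn had 11 CG pairs in its window, Magel2 had 10 and Mkrn3 had 15.

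Ndn stood at 8.56 and 8.67 in the control, 9.37 and 9.34 with siRNA 1, 9.40 and 9.33 with siRNA 2, and 8.66 and 8.47 with siRNA 1 at 48 h. The 4 siRNA arrays of 96 h lay close together above the control, and the 48 h arrays overlapped the control. Ndn rose by 0.74 ± 0.077 (1.68-fold, adjusted p = 0.000393), the smallest adjusted p among the members. Magel2 read 5.92 and 6.05 in the control, 6.42 and 6.47 with siRNA 1, 6.68 and 6.63 with siRNA 2, and 5.60 and 5.39 at 48 h. It was above the control with each siRNA at 96 h and below it at 48 h, and rose by 0.56 ± 0.079 (adjusted p = 0.00169). Mkrn3 went the other way, from 7.27 and 7.34 in the control to 6.82 and 6.95 with siRNA 1, 7.08 and 7.16 with siRNA 2, and 6.73 and 6.91 at 48 h. No siRNA array reached the control level, and Mkrn3 fell by 0.30 ± 0.078 (adjusted p = 0.0256). It was no longer called without 1 of these arrays: control replicate 1 (0.0741) or 2 (0.142), siRNA 1 replicate 1 (0.0648), siRNA 2 replicate 1 (0.0603, all adjusted p). Peg12 had group means of 3.78 in the control and 4.02 and 3.99 with the siRNAs at 96 h. Its difference of 0.22 ± 0.075 was not called (adjusted p = 0.0678), but with quantile normalization it was (adjusted p = 0.0279). Ube3a, a ubiquitin ligase gene that is imprinted in neurons, differed by -0.048 ± 0.073 (adjusted p = 0.679). Atp10a, a lipid-transporting ATPase gene beside Ube3a and not among the members, rose by 0.63 ± 0.075 (adjusted p = 0.000817).

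Peg3, a paternally expressed zinc finger gene on chromosome 7, had the largest fall among the members. Its window is shown because Usp29, a paternally expressed ubiquitin protease gene that was not called, starts on the opposite strand within the same stretch, with a window at chr7:6730333-6730632. The window of Peg3 lies at chr7:6730370-6730669 on the minus strand and holds 13 CG pairs, in capitals.
Peg3: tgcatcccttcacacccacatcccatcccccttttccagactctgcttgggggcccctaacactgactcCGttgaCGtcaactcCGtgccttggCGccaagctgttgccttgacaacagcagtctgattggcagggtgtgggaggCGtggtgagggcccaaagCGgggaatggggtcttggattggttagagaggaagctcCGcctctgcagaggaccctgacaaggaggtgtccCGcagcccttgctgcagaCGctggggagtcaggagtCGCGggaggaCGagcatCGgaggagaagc
Peg3 stood at 9.13 and 9.03 in the control, 8.60 and 8.47 with siRNA 1, 8.51 and 8.32 with siRNA 2 at 96 h, and 6.69 and 6.84 with siRNA 1 at 48 h. The siRNA arrays of 96 h lay below the control without overlap, and the 48 h arrays lay far below both. Peg3 fell by 0.61 ± 0.085 with both siRNAs at 96 h (1.53-fold, adjusted p = 0.00165). Usp29 had group means from 4.07 to 4.23 and Zim1, a maternally expressed zinc finger gene at the same locus, from 4.07 to 4.33, and neither was called at 96 h (0.062 ± 0.11 and -0.065 ± 0.12, adjusted p 0.72 and 0.738).

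RefSeq promoter windows were read for 32 members, 46 windows in all. Their median was 15.5 CG pairs, from 1 to 48, against 7 over all 32851 windows of mouse genes. The chromosome that holds Impact was left out of the member windows but not out of all windows. The hexamer TGCCGC or its complement GCGGCA, which Zfp57 binds when methylated, was looked for on both strands. It was found in 11 of the 46 member windows (23.9%) and in 3813 of all windows (11.6%), and in none of the printed windows of Ndn, Magel2, Mkrn3 and Peg3. Members that rose had it in 2 of 12 windows, those that fell in 1 of 4 and those not called in 8 of 30. These windows belong to 8 rising and 4 falling members, and none was read for Peg10, Sgce, Dcn and Trappc9. The hexamer itself holds a CG pair, and these shares were not adjusted for the higher CG count of the member windows. Overlapping windows of the same gene, as in Mest, were counted separately. A match is a run of letters and says nothing of binding in these cells.

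**Figure D3:**
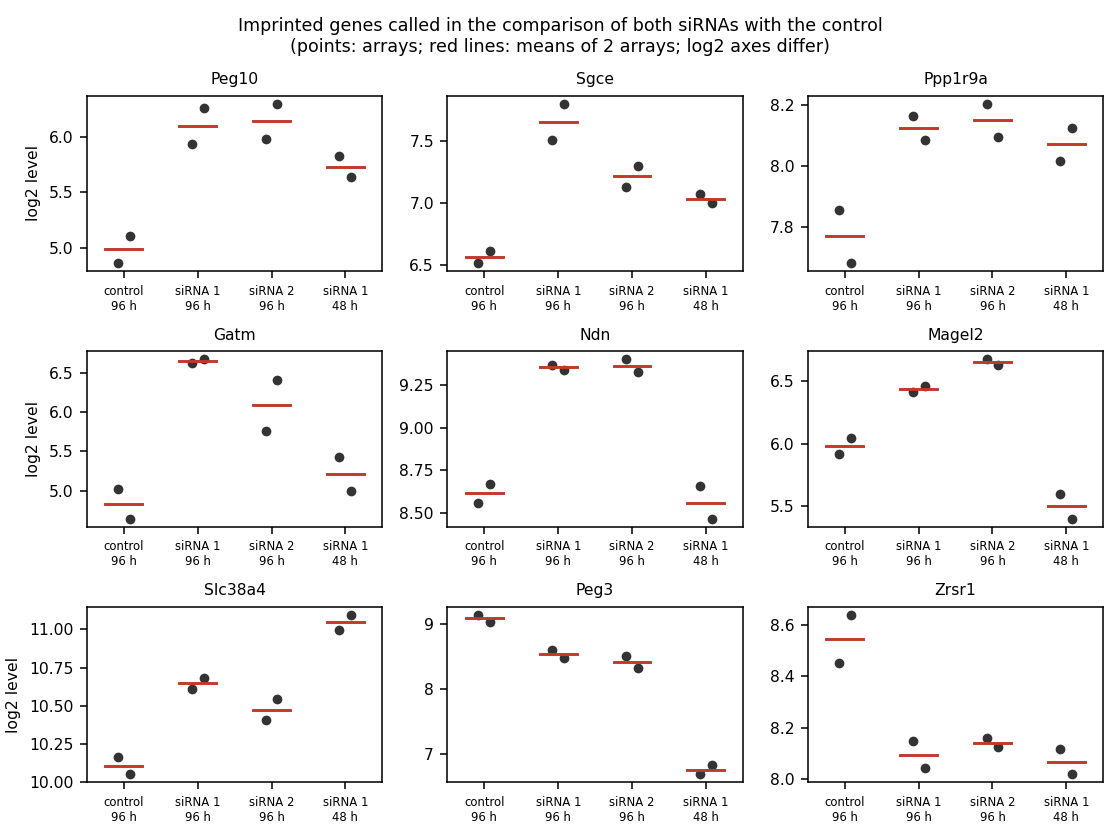
Log2 level (y axes, which differ between panels) of 9 imprinted genes on each array, with points for arrays and red lines for the mean of the 2 arrays of a group (x axis). The siRNA arrays of 96 h lie above the control for Peg10, Sgce, Ppp1r9a, Gatm, Ndn, Magel2 and Slc38a4 and below it for Peg3 and Zrsr1, and the 48 h arrays reach into the control range for Ndn and Gatm.

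Of the members that act on growth through insulin and the insulin-like growth factors, Igf2r and Grb10 rose and Igf2 and H19 were not called. Igf2, the paternally expressed growth factor gene, read 7.20 and 6.94 in the control, 7.43 and 7.48 with siRNA 1, 7.28 and 7.07 with siRNA 2, and 7.03 and 7.11 at 48 h. The siRNA 2 arrays overlapped the control, and the difference with both siRNAs of 0.25 ± 0.094 was not called (adjusted p = 0.0962). Igf2 was called (adjusted p = 0.0331) where genes below the median level were left out of the test. H19, the maternally expressed non-coding RNA that shares its control region with Igf2, was at 4.49 and 4.55 in the control, 4.68 and 4.18 with siRNA 1, 4.60 and 4.32 with siRNA 2, and 4.75 and 4.47 at 48 h. The groups overlapped throughout, with a difference of -0.077 ± 0.15 (adjusted p = 0.751). Igf2r, the maternally expressed receptor that clears Igf2 from the cell surface, went from 8.27 and 8.08 to 8.49 and 8.70 with siRNA 1 and 8.50 and 8.51 with siRNA 2, and was at 8.45 and 8.55 at 48 h. The siRNA arrays all lay above the control, and Igf2r rose by 0.38 ± 0.086 (adjusted p = 0.0153), with an adjusted p of 0.12 without control replicate 2. Grb10, a maternally expressed adaptor gene that dampens insulin receptor signalling, stood at 6.61 and 6.63 in the control, 6.99 and 6.93 with siRNA 1, 6.91 and 6.89 with siRNA 2, and 7.19 and 7.13 at 48 h. It was above the control on every siRNA array and rose by 0.31 ± 0.061 (adjusted p = 0.00889), with an adjusted p of 0.0623 without control replicate 1.

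The Dlk1-Meg3 locus on chromosome 12 is often watched in mouse stem cells because its silencing limits their developmental potential. Dlk1, the paternally expressed gene of a Notch-related ligand, stood at 5.50 and 5.60 in the control, 5.83 and 5.83 with siRNA 1, 5.84 and 5.68 with siRNA 2, and 5.85 and 5.64 at 48 h. The siRNA arrays lay above the control without overlap, but the difference of 0.25 ± 0.083 was not called (adjusted p = 0.0681). Meg3, the maternally expressed non-coding RNA, was at 10.87 and 10.86 in the control, 11.16 and 10.83 with siRNA 1, 10.99 and 10.96 with siRNA 2, and 9.59 and 9.56 at 48 h. The groups of 96 h overlapped (0.12 ± 0.093, adjusted p = 0.398), and the 48 h arrays were lower than all others. Mirg, a further maternally expressed non-coding RNA of the locus, stood at 9.42 and 9.46 in the control, 9.83 and 9.71 with siRNA 1, 9.76 and 9.83 with siRNA 2, and 8.29 and 8.40 at 48 h. Its siRNA arrays of 96 h lay above the control and its 48 h arrays below it, and its rise of 0.35 ± 0.070 at 96 h was called (adjusted p = 0.00966) but not without control replicate 1 (adjusted p = 0.0644).

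The genes of the Kcnq1 domain of chromosome 7 are maternally expressed under the control of a long non-coding RNA. At 96 h 0 of its 5 members were called by limma, where 23.8% of all genes were called. The 5 were not tested against that share. Of them 1, Slc22a18, had an unadjusted p below 0.05, and the share of all genes below that threshold was not counted here. Phlda2, which limits growth of the placenta, had group means of 11.99 in the control and 11.77 and 11.91 with the siRNAs (-0.15 ± 0.068, adjusted p = 0.144). Slc22a18, a transporter gene, had means of 6.54, 6.35 and 6.38 (-0.18 ± 0.062, adjusted p = 0.0725), with all siRNA arrays of 96 h below the control. In a fit with an intensity trend and robust variances together Phlda2 was called (adjusted p = 0.0365). Kcnq1, a potassium channel gene, Cd81, a tetraspanin gene, and Tssc4 differed by -0.091, 0.033 and 0.070, with adjusted p from 0.577 to 0.74.

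Several paternally expressed members are retrogenes that lie within an intron of a host gene, and they did not move one way. Zrsr1, a gene of a splicing factor family inside Commd1, went from 8.45 and 8.64 in the control to 8.15 and 8.04 with siRNA 1, 8.16 and 8.12 with siRNA 2, and 8.12 and 8.02 at 48 h. All siRNA arrays were below the control, and Zrsr1 fell by 0.43 ± 0.078 (adjusted p = 0.00588), or by 0.33 without control replicate 2 (adjusted p = 0.0548). Its host Commd1 differed by -0.11 ± 0.065 (adjusted p = 0.259). Mcts2, a near copy of the translation factor gene Mcts1 whose probes may read both, stood at 10.54 and 10.66 in the control, 10.23 and 10.28 with siRNA 1, 10.37 and 10.35 with siRNA 2, and 10.61 and 10.44 at 48 h. It was below the control at 96 h only and fell by 0.29 ± 0.075 (adjusted p = 0.0248). Its adjusted p rose to 0.0537 without control replicate 1, 0.165 without control replicate 2, 0.061 without siRNA 1 replicate 1, 0.0573 without siRNA 2 replicate 2 and 0.0523 with the lung marker covariate. H13, its host and the gene of signal peptide peptidase, differed by 0.26 ± 0.074 (adjusted p = 0.0373), and that call was lost without either control array (adjusted p = 0.212 and 0.0733), without siRNA 1 replicate 1 (0.0898), siRNA 2 replicate 2 (0.0905) or either 48 h array (0.0563), and with the lung marker covariate (0.0762).

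Nap1l5, a nucleosome assembly family gene inside Herc3, had control arrays that were far apart. It stood at 5.82 and 4.60 in the control, 6.49 and 6.41 with siRNA 1, 6.28 and 6.19 with siRNA 2, and 6.09 and 6.38 at 48 h. All siRNA arrays lay above both control arrays, and Nap1l5 rose by 1.13 ± 0.28 (adjusted p = 0.0205), by 1.74 without control replicate 1 and by 0.52 without control replicate 2. Herc3 differed by 0.23 ± 0.090 (adjusted p = 0.104). Inpp5f, a lipid phosphatase gene of which only 1 transcript is imprinted, differed by 0.10 ± 0.063 (adjusted p = 0.273), and the probe set may read the others as well.

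Among members with a role in metabolism and transport, Gatm changed most. Gatm, imprinted in the mouse placenta, encodes the enzyme that commits glycine and arginine to creatine synthesis. It stood at 5.01 and 4.64 in the control, 6.62 and 6.67 with siRNA 1, 5.76 and 6.42 with siRNA 2, and 5.42 and 4.99 at 48 h. The siRNA arrays of 96 h were all above the control, with siRNA 1 highest, and the 48 h arrays reached into the control range. Gatm rose by 1.54 ± 0.20 (2.91-fold, adjusted p = 0.00109). Slc38a4, a paternally expressed gene for an amino acid transporter, read 10.17 and 10.05 in the control, 10.61 and 10.68 with siRNA 1, 10.40 and 10.54 with siRNA 2, and 11.00 and 11.09 at 48 h. It lay above the control on every siRNA array and was highest at 48 h, and rose by 0.45 ± 0.074 at 96 h (adjusted p = 0.00374).

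Trappc9 and Dcn, both maternally expressed in a limited set of tissues, were lower at 96 h. Trappc9, a subunit gene of a vesicle trafficking complex, stood at 7.16 and 7.36 in the control, 6.89 and 6.95 with siRNA 1, 7.02 and 6.85 with siRNA 2, and 7.34 and 7.37 at 48 h. It was below the control at 96 h only and fell by 0.33 ± 0.084 (adjusted p = 0.0228), and its adjusted p was 0.174 without control replicate 2, 0.0578 without siRNA 1 replicate 1, 0.0565 without siRNA 2 replicate 2 and 0.0528 with the lung marker covariate. Dcn, the gene of the matrix proteoglycan decorin, read 6.67 and 6.85 in the control, 6.49 and 6.30 with siRNA 1, 6.45 and 6.04 with siRNA 2, and 5.35 and 5.60 at 48 h. Its siRNA arrays lay below the control, most of all at 48 h, and it fell by 0.44 ± 0.13 (adjusted p = 0.0433). For Dcn the adjusted p was 0.0741 without control replicate 1, 0.22 without control replicate 2, 0.054 and 0.107 without siRNA 1 replicate 1 and 2, 0.0775 without siRNA 2 replicate 2, 0.0574 without either 48 h array and 0.058 with the lung marker covariate. Of 17 lung markers 2 (11.8%) were lower with both siRNAs at 96 h, near the 12.0% of all genes called lower. They were Napsa, by -1.34 ± 0.11, and Bpifa1, by -0.88 ± 0.20. The lung list averaged 7.42 and 7.45 in the control and 7.00 to 7.56 with the siRNAs. For Bpifa1 the adjusted p was 0.0718 and 0.0709 without control replicate 1 and 2. Markers of fibroblasts and feeder cells, which include cells rich in Dcn, had 5 of 15 higher and 0 lower. Among all genes 11.7% were called higher and 12.0% lower. Their average was 5.64 and 5.72 in the control and 5.79 to 6.03 with the siRNAs at 96 h. This list was split, with 10 differences above 0 and 5 below. Col3a1, not called, had means of 6.68 in the control, 6.21 with the siRNAs at 96 h and 4.30 at 48 h. Postn, not called either, had means of 5.78, 5.64 and 4.67. Tagln and Mmp2 of the same list went the other way at 96 h. Tagln had means of 7.89 in the control, 9.49 with the siRNAs at 96 h and 7.87 at 48 h, and Mmp2 of 6.73, 7.57 and 7.35. The part of these cell markers in the change of Dcn was not tested.

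The remaining members were not called with both siRNAs at 96 h. Mest, a gene of the hydrolase family, and Copg2, a coat protein gene that overlaps its end, differed by -0.058 ± 0.072 and -0.081 ± 0.089. Nnat, a small membrane protein gene, differed by 0.23 ± 0.11 (adjusted p = 0.165), and its host Blcap by -0.24 ± 0.084 (adjusted p = 0.0706). Blcap was called without genes below the median level (adjusted p = 0.0214) and with an intensity trend and robust variances together (0.0317). Impact, whose protein restrains the stress kinase Gcn2, differed by 0.054 ± 0.073. Plagl1, a zinc finger gene, Rasgrf1, a Ras activator gene, Calcrl, a peptide hormone receptor gene, and Gnas, the gene of a stimulatory G protein subunit, differed by -0.13, -0.056, -0.15 and 0.075, with adjusted p from 0.341 to 0.612.

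By parental copy, 6 of 20 paternally expressed members rose and 4 fell, with a median difference of 0.16, and 4 of 18 maternally expressed members rose and 2 fell, with a median of -0.057. That is 50% of the paternally and 33.3% of the maternally expressed members called, beside 11.7% of all genes called higher and 12.0% lower (23.8% in all). The difference between these classes was not tested. The 10 members imprinted mainly in a single tissue had 3 rising and 2 falling. Leaving these out, 5 of 18 paternally expressed members rose and 4 fell, and 2 of 10 maternally expressed members rose and 0 fell, a share near that of all genes. The maternally expressed ones that rose there were Igf2r and Grb10, and the paternally expressed ones were Peg10, Sgce, Ndn, Magel2 and Slc38a4.

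**Figure D4:**
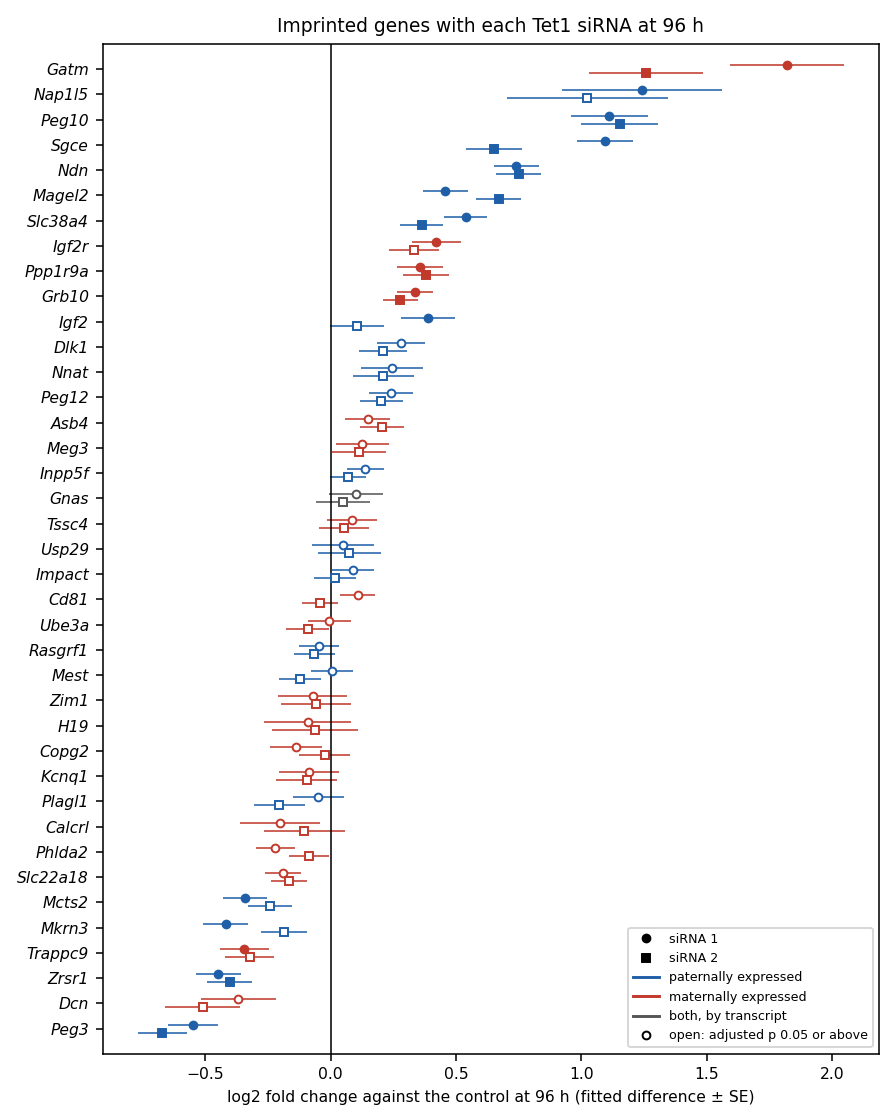
Fitted log2 fold change against the control at 96 h (x axis, ± SE) of the 39 members (y axis, ordered by the mean of both siRNAs), with circles for siRNA 1, squares for siRNA 2, colour for the expressed parental copy, and open symbols at an adjusted p of 0.05 or above. Gatm is at the top, at 1.82 with siRNA 1 and 1.26 with siRNA 2, and Peg3 at the bottom, at -0.55 and -0.67.

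Each siRNA was also set against the same control arrays, so these comparisons share them. With siRNA 1, 11 members rose and 5 fell, where 11.3% of all genes were higher and 11.1% lower (22.4% in all). With siRNA 2, 8 rose and 2 fell, where 7.81% were higher and 7.43% lower (15.2% in all). The members called with siRNA 2 were Peg10, Sgce, Ppp1r9a, Ndn, Magel2, Gatm, Slc38a4 and Grb10, higher, and Peg3 and Zrsr1, lower. Those called with siRNA 1 were Peg10, Sgce, Ppp1r9a, Ndn, Magel2, Gatm, Slc38a4, Grb10, Igf2, Igf2r and Nap1l5, higher, and Peg3, Zrsr1, Mkrn3, Mcts2 and Trappc9, lower. Peg10 differed from the control by 1.11 ± 0.15 with siRNA 1 and 1.15 ± 0.15 with siRNA 2, Ndn by 0.74 ± 0.089 and 0.75 ± 0.089, and Peg3 by -0.55 ± 0.098 and -0.67 ± 0.098. Between the siRNAs these genes differed by -0.040 ± 0.15, -0.0089 ± 0.089 and 0.12 ± 0.098. The siRNA 1 count of rising members was 7 without its replicate 1 and 6 without its replicate 2, and that of falling members 1 without control replicate 2 and 2 without either siRNA 1 array. The siRNA 2 counts were 5 and 1 without control replicate 2 and 5 and 1 without siRNA 2 replicate 2. Of the 10 calls with siRNA 2, 4 were lost without some single array. That of Grb10 (0.28 ± 0.071) was lost without any one of the 8 arrays (adjusted p from 0.0512 to 0.134), with the replicate number as a block (0.0527) and with the lung marker covariate (0.0536), and those of Zrsr1, Ppp1r9a and Slc38a4 had adjusted p values up to 0.115, 0.141 and 0.138. With siRNA 1, 10 of 16 calls were lost without some single array. The adjusted p reached 0.118 for Igf2r, 0.0593 for Magel2, 0.0754 for Mkrn3, 0.0665 for Zrsr1 and 0.0663 for Grb10. It reached 0.14 for Ppp1r9a, 0.128 for Mcts2, 0.102 for Nap1l5 and 0.192 for Trappc9. Igf2 with siRNA 1 (0.39 ± 0.11, adjusted p = 0.0356) had an adjusted p of 0.183 without control replicate 2, 0.0972 and 0.15 without siRNA 1 replicate 1 and 2, and 0.0583 without either 48 h array.

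Set directly against each other at 96 h, the siRNAs differed in 0 members by limma, where 0.0246% of all genes, 4 in number, were called. At an unadjusted p below 0.05 there were 5 members, Sgce, Igf2, Mkrn3, Gatm and Magel2. The share of all genes below that unadjusted threshold was not counted here, so these 5 cannot be set against it. Sgce was higher with siRNA 1 by 0.44 ± 0.11 (unadjusted p = 0.00381, adjusted p = 0.226), with arrays at 7.51 and 7.80 against 7.13 and 7.29. Its arrays did not overlap between the siRNAs, and it was called (adjusted p = 0.0481) where genes below the median level were left out of the test. Gatm was higher with siRNA 1 by 0.56 ± 0.23 and Igf2 by 0.28 ± 0.11, and Magel2 and Mkrn3 were lower with it by -0.21 ± 0.091 and -0.23 ± 0.090 (adjusted p from 0.416 to 0.47). The other members called with siRNA 1 and not with siRNA 2 differed between them by 0.088 ± 0.099 for Igf2r, 0.22 ± 0.32 for Nap1l5, -0.10 ± 0.086 for Mcts2 and -0.021 ± 0.097 for Trappc9 (adjusted p from 0.74 to 0.962).

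The arrays of siRNA 1 at 96 h were set against those at 48 h to see how the members changed with time. At 96 h 14 of 39 members were higher than at 48 h, 8 were lower and 17 were not called, where 37.4% of all genes were called, 3085 of them higher and 2993 lower. Time, the lung marker level, the hybridisation controls and the poly-A controls change together between these arrays and cannot be told apart. Lung markers were higher at 96 h in 11 of 17. Peg3 went from 6.69 and 6.84 at 48 h to 8.60 and 8.47 at 96 h, a rise of 1.77 ± 0.098 (adjusted p = 1.95e-05). Nnat stood at 4.81 and 5.03 at 48 h and 6.84 and 6.64 at 96 h, a rise of 1.82 ± 0.12 (adjusted p = 4.05e-05). Both genes had a gap of over 1 log2 unit between the times. Meg3 was higher at 96 h by 1.42 ± 0.11, Impact by 1.14 ± 0.084, Gatm by 1.44 ± 0.23, Magel2 by 0.95 ± 0.091, Dcn by 0.92 ± 0.15, Ndn by 0.80 ± 0.089, Sgce by 0.62 ± 0.11, Tssc4 by 0.58 ± 0.099 and Peg12 by 0.42 ± 0.087. Copg2 was lower at 96 h by -0.90 ± 0.10, Slc22a18 by -0.58 ± 0.071, Mest by -0.42 ± 0.083 and Phlda2 by -0.38 ± 0.078. The pair Mest and Copg2, which lie end to end on chromosome 6, was thus lower together at 96 h, and Slc22a18 and Phlda2 of the Kcnq1 domain were too.

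Calls between the times that a single array decided were those of Igf2, Kcnq1, Ube3a, Mcts2, Inpp5f, Slc38a4 and Trappc9. Without 48 h replicate 2 Slc38a4 had an adjusted p of 0.058 and Trappc9 of 0.0535. The other calls so lost had adjusted p values up to 0.206 without 1 array of siRNA 1. These were Igf2 (0.112 without 48 h replicate 1), Kcnq1 (0.15 without the same array), Ube3a (0.164 without 96 h replicate 2), Mcts2 (0.206 without 48 h replicate 1) and Inpp5f (0.206 without 96 h replicate 1).

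**Figure D5:**
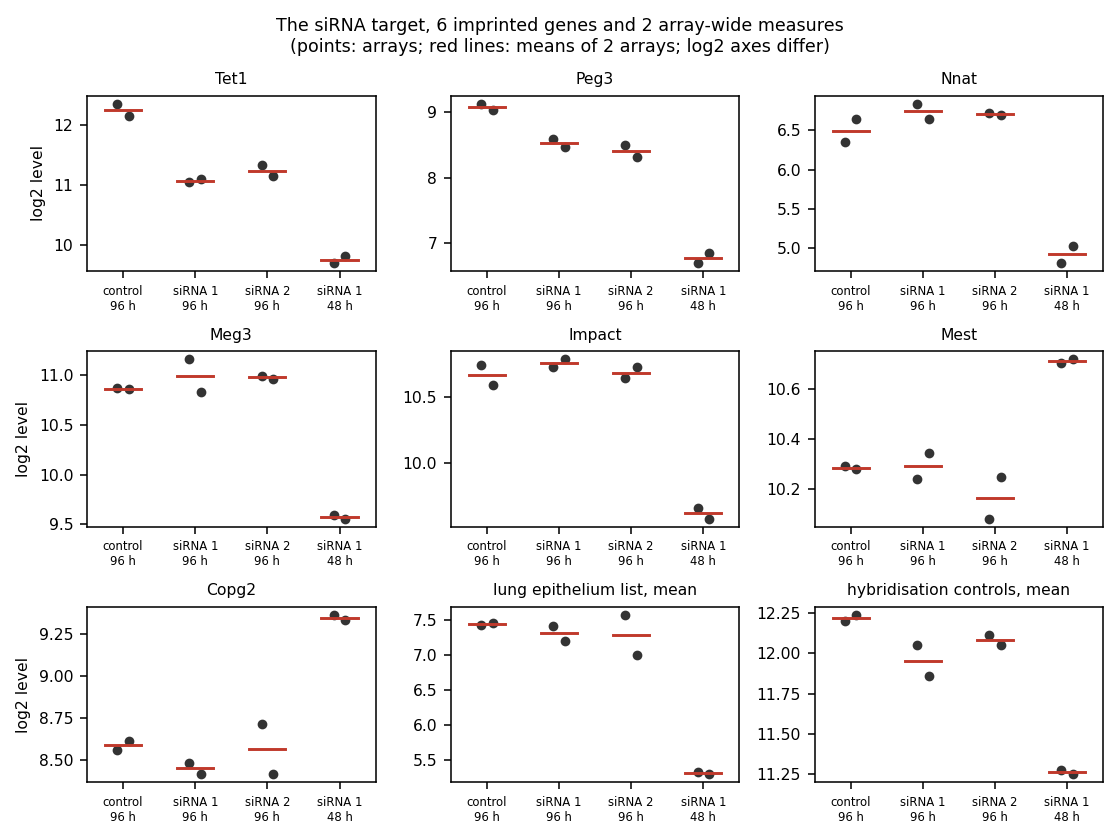
Log2 level (y axes, which differ between panels) on each array of Tet1, 6 imprinted genes, the mean of the lung epithelium list and the mean of the hybridisation controls, with points for arrays and red lines for group means (x axis). Peg3, Nnat, Meg3 and Impact are lowest and Mest and Copg2 highest on the 48 h arrays, and the lung list (5.29 to 5.32) and the hybridisation controls (11.25 to 11.28) are lowest there too.

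Against the control of 96 h, which differs in time as well as in siRNA, 10 members were higher with siRNA 1 at 48 h, 11 were lower and 18 were not called, where 16.8% of all genes were higher and 18.1% lower (34.9% in all). Of 17 lung markers 12 were lower and 0 higher in this comparison, and siRNA, time and these array-wide differences cannot be told apart. Peg3 was lower by -2.32 ± 0.098 (4.98-fold), Nnat by -1.58 ± 0.12, Meg3 by -1.29 ± 0.11, Dcn by -1.28 ± 0.15 and Impact by -1.05 ± 0.084. Slc38a4 was higher by 0.94 ± 0.086, Copg2 by 0.76 ± 0.10, Peg10 by 0.75 ± 0.15, Grb10 by 0.54 ± 0.071, Sgce by 0.47 ± 0.11, Mest by 0.43 ± 0.083 and Slc22a18 by 0.38 ± 0.071. The lower ones further included Magel2 (-0.49 ± 0.091), Mkrn3 (-0.49 ± 0.090), Zrsr1 (-0.48 ± 0.090) and Tssc4 (-0.50 ± 0.099). Magel2 lay below the control at 48 h and above it at 96 h, and both comparisons share the control arrays. Peg10 lost its 48 h call without 48 h replicate 1 (adjusted p = 0.0519), Tssc4 without 48 h replicate 2 (0.0509), and Sgce without control replicate 1 (0.0604) or 48 h replicate 1 (0.0688) or 2 (0.0521). The calls of Igf2r (0.33 ± 0.099), Ppp1r9a (0.30 ± 0.091), Nap1l5 (1.02 ± 0.32), Ube3a (-0.28 ± 0.084) and Calcrl (-0.63 ± 0.16) were lost without single arrays too, with adjusted p up to 0.18, 0.182, 0.19, 0.19 and 0.105. The count of higher members was 5 without 48 h replicate 1.

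Genes that keep or write imprints were read as a list of 23, of which 21 were measured. The list also held Tet2 and Tet3, relatives of Tet1 and not keepers or writers. With both siRNAs at 96 h 3 of them rose and 6, Tet2 included, fell. That is 42.9% called, beside 11.7% of all genes called higher and 12.0% lower (23.8% in all). Zfp57 stood at 8.63 and 8.69 in the control, 7.87 and 7.66 with siRNA 1, 8.25 and 8.08 with siRNA 2, and 8.15 and 8.09 at 48 h. All siRNA arrays were below the control, and Zfp57 fell by 0.69 ± 0.083 (adjusted p = 0.000818). Its partner Trim28 (-0.11 ± 0.065, adjusted p = 0.278), the maintenance methyltransferase Dnmt1 (-0.091 ± 0.062, adjusted p = 0.331), its guide Uhrf1 (0.0095 ± 0.068, adjusted p = 0.938) and Dppa3 (-0.16 ± 0.10, adjusted p = 0.285), which shields maternal methylation in the early embryo, were not called. The de novo methyltransferases Dnmt3b and Dnmt3a rose by 0.79 ± 0.061 and 0.38 ± 0.066, and Tet2, a relative of Tet1, fell by 0.69 ± 0.078. Arid4a, which acts at the Snrpn control region in mice, fell by 0.36 ± 0.060, and Zfp42, the gene of Rex1, by 0.49 ± 0.084.

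Another list held 54 further imprinted genes and neighbours or hosts at the same loci, of which 42 were measured. Of these 10 rose, 6 fell and 26 were not called. That is 38.1% called, beside 11.7% of all genes called higher and 12.0% lower (23.8% in all). The median difference was 0.090, beside -0.023 over all genes. Besides Pon2, Calcr and Atp10a, the smallest adjusted p values were those of Sfmbt2, Cobl and Ampd3. Sfmbt2, a Polycomb family gene that is paternally expressed in mouse embryonic and placental tissue, stood at 8.75 and 8.62 in the control, 9.85 and 9.99 with siRNA 1, 9.45 and 9.47 with siRNA 2, and 7.87 and 7.77 at 48 h. It was highest with siRNA 1 at 96 h and lowest at 48 h, and rose by 1.01 ± 0.075 at 96 h (adjusted p = 8.84e-05). Cobl, an actin nucleator gene next to Grb10, fell by 0.98 ± 0.073, while Grb10 itself rose. Ampd3, a gene of adenine nucleotide metabolism, fell by 0.90 ± 0.098.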

How the data were processed

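Total RNA of E14Tg2a cells was labelled with biotin by in vitro transcription and hybridised to 8 Affymetrix arrays, per the labels' protocols. The authors deposited log2 expression values made with RMA, per the submitters' processing notes, which give no version. RMA normalizes arrays to a common distribution, so a change in total RNA per cell is not visible. Their range shows the log2 scale, with array medians from 6.68 to 6.72. The number of arrays limits the precision.

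Of 16556 probe sets 64 were controls, 15270 were named by the platform annotation, 988 were named through their Entrez gene number and the RefSeq table (H19, Zrsr1 and Tet1 among them), and 234 stayed unnamed. For 5 genes with several probe sets the one with the highest mean was used. The 4 group means were fitted over the 8 arrays with limma 3.58.1 in R 4.3.3, with 4 residual and 4.1 prior degrees of freedom, and tested on simulated data. The 6 comparisons were adjusted by Benjamini-Hochberg over 16253 genes each, two-sided, and called below 0.05. Replicate numbers were not used as a block, since same-numbered arrays did not deviate together.

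Array values were given for the members called with both siRNAs and for H19, Igf2, Igf2r, Dlk1 and Meg3. From the further lists up to 6 called genes each were named by adjusted p, besides genes at a member's locus and Zfp57, Trim28, Dnmt1, Uhrf1 and Dppa3. The members and lists were chosen with earlier results of these data known. Alternatives changed the normalization, the variance model, the filter on dim genes, covariates and the arrays used. Scanner files were not used here.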

Additional observations from a re-analysis of the deposited data

How the results depend on the processing

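With both siRNAs at 96 h, 8 of 16 called members kept their call under every alternative run (Ndn, Sgce, Peg10, Gatm, Peg3, Magel2, Slc38a4 and Nap1l5), and 8 lost it in at least 1. The count of lower members was 3 with the lung markers as covariate, and 1 to 5 when single arrays were left out. Leaving out single arrays gave 6 to 11 higher and 1 to 5 lower members for siRNA 1, 5 to 7 higher and 1 to 2 lower for siRNA 2, 11 to 13 higher and 6 to 8 lower between the times, and 5 to 9 higher and 9 to 11 lower for 48 h against the control. Without genes below the median level the counts were 7 higher for siRNA 1, 4 lower for siRNA 2, 1 higher between the siRNAs, 9 higher between the times and 7 lower for 48 h against the control, and the median of the last was 0.0001. Fewer genes and fewer members are tested there, and Peg10, Magel2, Gatm and Nap1l5 are not among them. Nap1l5 was also near the limit, with an adjusted p of 0.0484 by limma for both siRNAs with the lung markers as covariate. For siRNA 2 the lower count was 5 with an intensity trend and robust variances together and 1 with the genes of the annotation alone, which lacks Zrsr1.

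A fit with the hybridisation controls as covariate, chosen after seeing the data, left 0 members called, higher or lower, in both comparisons of the 48 h arrays. This covariate separates the 48 h arrays from the others, so its effect and that of time cannot be told apart. It turned the sign between the times for Mest (0.082), Dcn (-0.066), Inpp5f (-0.098) and Slc38a4 (0.077), and for 48 h against the control for Igf2r (-0.80), Peg10 (-0.77), Mest (-0.27), Sgce (-0.88), Zrsr1 (0.24), Meg3 (0.20) and Dcn (0.075).

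With the replicate number as a block, 10 members were higher and 5 lower with both siRNAs. Same-numbered arrays of different groups had deviations that correlated between -0.057 and 0.14, so the numbers were not taken to pair the samples.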
